A study of Arabidopsis with 12 samples.

Results

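The genes described are 9 Arabidopsis genes of amino acid turnover among the 32833 genes in the deposited expression table, chosen by name and locus identifier. They are the asparagine synthetases ASN1 (AT3G47340), ASN2 (AT5G65010) and ASN3 (AT5G10240), the glutamate dehydrogenases GDH1 (AT5G18170), GDH2 (AT5G07440) and GDH3 (AT3G03910), the glutamine amidotransferase GAT1_2.1 (AT1G15040), the proline dehydrogenase ERD5 (AT3G30775) and the threonine aldolase THA1 (AT1G08630). The measure is TPM, the abundance of a transcript per length and scaled to the total of its library, so levels can be compared between genes. A gene was tested where it had at least 1 TPM in at least 3 of the 12 libraries, which kept 8 of the 9 genes and 19862 genes in all. GDH3 was listed at 0.04 to 0.42 TPM in the 12 libraries and was not tested.

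Messenger RNA was sequenced from leaf portions of seedlings grown for 10 days in white light and then shaded for 6 h (red over far-red, 0.17) while supplied with 30 mM sucrose or 30 mM sorbitol. There were 4 groups of 3 libraries: phyA-211 given sucrose, phyA-211 given sorbitol, Col-0 given sucrose and Col-0 given sorbitol. Col-0 is the wild type, phyA-211 carries a mutant allele of PHYA, the gene of the photoreceptor that senses far-red light, and sorbitol, a sugar alcohol, served as the control for sucrose at an equal molarity. Every group was shaded, so no comparison here measures shade, and a single mutant allele stands for the loss of phytochrome A. The labels do not say whether the libraries of a group came from separate cultures or how many seedlings each holds, and the p-values then reflect only the spread among the libraries sequenced, which may be technical.

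Asparagine carries nitrogen with little carbon, and plants make it from aspartate and glutamine through asparagine synthetase. Glutamate dehydrogenase can release ammonium from glutamate and return its carbon skeleton to the tricarboxylic acid cycle, and proline dehydrogenase and threonine aldolase open the breakdown of their amino acids. ASN1, also called DIN6 for dark inducible, is a classic transcript of leaves in the dark or short of sugar, and the breakdown of amino acids is known to feed respiration when sugar runs low.

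TPM keeps no read counts, sequencing depth is therefore unknown, and counting intervals cannot be given. Between 22451 and 22852 genes per library were above 0. PHYA followed the genotype labels, at 37.4 to 44.9 TPM in phyA-211 with sucrose, 32.5 to 41.3 TPM in phyA-211 with sorbitol, 223 to 343 TPM in Col-0 with sucrose and 346 to 385 TPM in Col-0 with sorbitol. The leaf mesophyll markers RBCS1A, RCA, CAB1 and CA1 summed to 20995 TPM in replicate 3 of phyA-211 with sucrose and to between 33758 and 45389 TPM in the other libraries, and with all 12 libraries none of the 4 passed the test in any comparison. Under the alternatives run for this list, 1 of the 4 was called higher with sucrose in Col-0 after quantile normalization, and 1 was called lower in phyA-211 with sorbitol without replicate 3 of phyA-211 with sucrose and without replicate 3 of both phyA-211 with sucrose and Col-0 with sorbitol. Of the root markers, PYK10 stood at 646 to 1799 TPM, PHT1;1 at 9.54 to 48.7 TPM and TIP2;3 at 1.17 to 34.5 TPM, and IRT1, COBL9 and EXP7 had at most 6.53 TPM. With all 12 libraries TIP2;3 was the only root marker called, lower with sucrose in phyA-211 at 3.39 ± 1.79 TPM, against 18.9 ± 14.5 TPM with sorbitol (log2 change -1.98, adjusted p = 0.0411), and its part in the results was not tested. That call was lost without replicate 3 of phyA-211 with sucrose, where 1 of the 5 tested root markers was called higher with sucrose in Col-0. Of the meristem markers, BP stood at 10.6 to 19.0 TPM and STM at 2.83 to 4.26 TPM, while WUS and CLV3 were at 0 in some libraries and had at most 1.24 TPM. In RNA from whole leaf portions, fewer cells of a type and less RNA per cell cannot be told apart.

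A pair of libraries stood apart from their groups in these genes. Replicate 3 of Col-0 with sorbitol was the highest of its group for all 6 of ASN1, GDH1, GDH2, GAT1_2.1, ERD5 and THA1, and the lowest for ASN2 and ASN3. Replicate 3 of phyA-211 with sucrose was the lowest of its group for the same 6 genes. It was the highest for ASN3 and, by little, for ASN2 (205 TPM, against 204 and 199 TPM). Other libraries were also at an extreme of their group for all 6 genes, replicate 1 of Col-0 with sorbitol as the lowest and replicate 2 of phyA-211 with sucrose as the highest. The 6 genes summed to 789, 924 and 285 TPM in phyA-211 with sucrose and 3044, 2730.3 and 3105 TPM in phyA-211 with sorbitol. They summed to 392, 363 and 398 TPM in Col-0 with sucrose and 1844, 2130.2 and 3959 TPM in Col-0 with sorbitol. The 6 other sugar-repressed markers (SEN1, DIN2, DIN10, DRM1, BT2 and ATL8) summed to 2283, 2443 and 407 TPM in phyA-211 with sucrose and 6986, 4999 and 7161 TPM in phyA-211 with sorbitol. In Col-0 they summed to 1097, 1070 and 1236 TPM with sucrose and 4821, 4992 and 8281 TPM with sorbitol. Replicate 3 of Col-0 with sorbitol and replicate 3 of phyA-211 with sucrose were again at the extremes of these sums, but BT2 was lowest in replicate 3 of Col-0 with sorbitol (log2 deviation from the group mean -0.12). Replicate 2 of phyA-211 with sorbitol had the lowest marker sum of its group and was the lowest for 4 of the 6 genes named first. The part of these libraries in the results was not tested. Results that rest on replicate 3 of Col-0 with sorbitol or of phyA-211 with sucrose are given with and without it.

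With sucrose, 6 of the 8 tested genes were lower than with sorbitol in each genotype, ASN3 was higher, and ASN2 did not pass the test. Differences are log2 changes of TPM + 1, sucrose minus sorbitol or phyA-211 minus Col-0, and p-values are from limma with Benjamini-Hochberg adjustment over all 19862 genes, called under 0.05. In phyA-211, 27.5% of all genes tested were called, 16.9% higher and 10.5% lower. In Col-0, 22.1% were called, 12.1% higher and 9.95% lower. The balance of the whole table depended on scaling: in phyA-211 it was 3361 genes higher and 2093 lower, against 2785 higher and 3022 lower after median ratio rescaling, which changed no call of the 8 genes. The median log2 change of the 8 genes was -1.76 in phyA-211, against 0.11 over all genes, and -2.05 in Col-0, against 0.08 over all genes. The comparisons in phyA-211 and in Col-0 share no libraries.

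**Figure D1:**
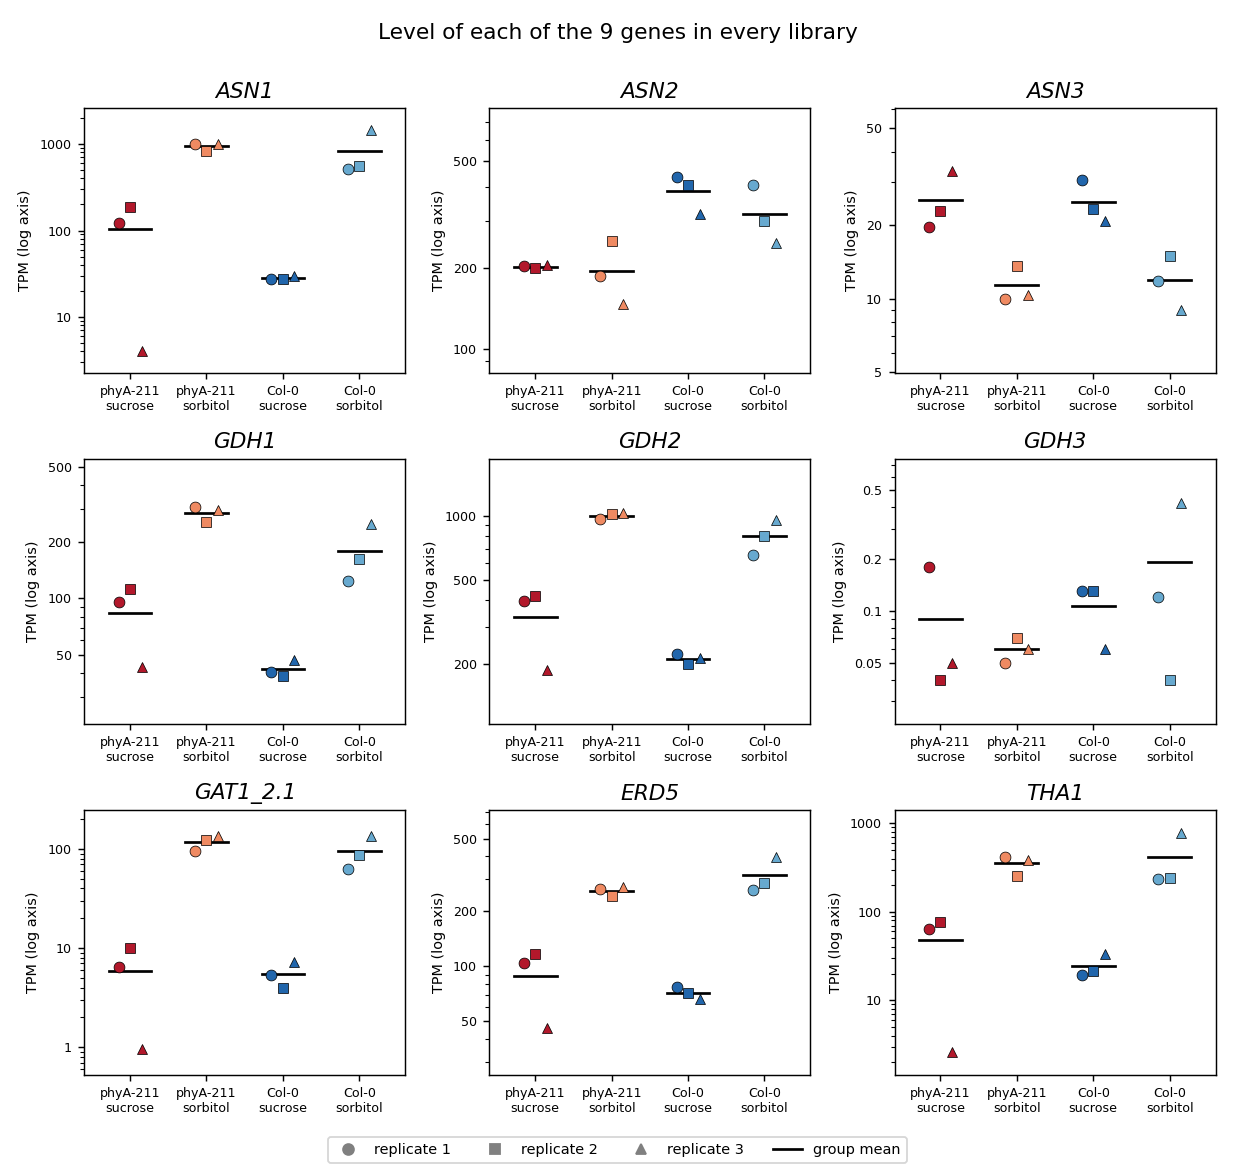
TPM of each gene on a log axis in the 12 libraries, with 1 point per library (the marker shape gives the replicate number) and a line at the mean of 3. ASN1, GDH1, GDH2, GAT1_2.1, ERD5 and THA1 lie lower with sucrose in both genotypes, ASN3 lies higher, and for ASN1 and THA1 the triangles of phyA-211 with sucrose and of Col-0 with sorbitol lie away from their groups.

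ASN1, the asparagine synthetase of leaves short of sugar, had 123, 189 and 4.07 TPM in phyA-211 with sucrose, against 998, 842 and 992 TPM in phyA-211 with sorbitol. In Col-0 it had 27.4, 27.8 and 29.4 TPM with sucrose, against 512, 552 and 1442 TPM with sorbitol. The sugar groups did not overlap in either genotype, and replicate 3 of phyA-211 with sucrose lay far under both its own group and the Col-0 libraries with sucrose. ASN1 fell by 4.26 on the log2 scale in phyA-211 (SE 1.01, adjusted p = 0.0117) and fell by 4.67 in Col-0 (SE 1.01, adjusted p = 0.00792). All groups share the estimate of spread, so phyA-211 libraries also enter the SE in Col-0. Without replicate 3 of phyA-211 with sucrose the change in Col-0 was again -4.67, with SE 0.325 (adjusted p = 1.09e-05). The group mean with sorbitol was 8.96-fold that with sucrose in phyA-211 and 29.6-fold in Col-0. The ratio was 6.05-fold in phyA-211 without replicate 3 of phyA-211 with sucrose, and 18.8-fold in Col-0 without replicate 3 of Col-0 with sorbitol, where the log2 change was then -4.19 (adjusted p = 0.0396). In Col-0 no other gene of the 19862 had a more negative log2 change, and in phyA-211 ASN1 ranked 3 from the most lowered. Without replicate 3 of phyA-211 with sucrose the change in phyA-211 was -2.62 (adjusted p = 0.00216), without replicate 2 of that group it was -5.23, and in a fit to the phyA-211 libraries alone the adjusted p was 0.0608.

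ASN2, an asparagine synthetase known to be induced by light, had 204, 199 and 205 TPM in phyA-211 with sucrose, against 187, 252 and 147 TPM in phyA-211 with sorbitol. Col-0 had 438, 409 and 317 TPM with sucrose, against 409, 299.5 and 247 TPM with sorbitol. The sugar groups overlapped in both genotypes. The log2 change was 0.09 in phyA-211 (95% interval -0.38 to 0.56, adjusted p = 0.786) and 0.30 in Col-0 (-0.17 to 0.77, adjusted p = 0.347).

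ASN3, the synthetase with the lowest mean in each of the 4 groups, had 19.7, 22.9 and 33.5 TPM in phyA-211 with sucrose, against 9.97, 13.6 and 10.4 TPM in phyA-211 with sorbitol. The Col-0 libraries had 30.7, 23.3 and 20.8 TPM with sucrose, against 11.8, 14.96 and 8.95 TPM with sorbitol. Every sucrose library lay above every sorbitol library of its genotype. ASN3 rose by 1.08 on the log2 scale in phyA-211 (SE 0.228, adjusted p = 0.00766) and by 1.02 in Col-0 (SE 0.228, adjusted p = 0.0093). It ranked 551 and 672 from the most raised of the 19862 genes in phyA-211 and Col-0, and it was called under every alternative run.

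The 3 synthetases together had 334 ± 85.0 TPM in phyA-211 with sucrose and 1151 ± 43.8 TPM in phyA-211 with sorbitol (SD, n = 3 each). In Col-0 the sum was 441 ± 66.2 TPM with sucrose and 1166 ± 462 TPM with sorbitol. The sum was lower in every sucrose library than in any sorbitol library of its genotype (exact permutation test, 2-sided, p = 0.1 in each, the smallest that 3 libraries against 3 can give). ASN1 made up 27.7% ± 23.2 of the sum in phyA-211 with sucrose and 82.0% ± 5.32 in phyA-211 with sorbitol. In Col-0 its share was 6.53% ± 1.31 with sucrose and 67.8% ± 15.5 with sorbitol. ASN2 held most of the rest, with 63.9% ± 18.6 in phyA-211 with sucrose, 17.1% ± 5.13 in phyA-211 with sorbitol, 87.8% ± 1.34 in Col-0 with sucrose and 31.0% ± 14.99 in Col-0 with sorbitol. With sucrose, ASN2 was the most abundant synthetase in all 6 libraries, and with sorbitol ASN1 was the most abundant in all 6. In replicate 3 of phyA-211 with sucrose the share of ASN1 was 1.67%, and in the other libraries of that group it reached 46.0%.

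**Figure D2:**
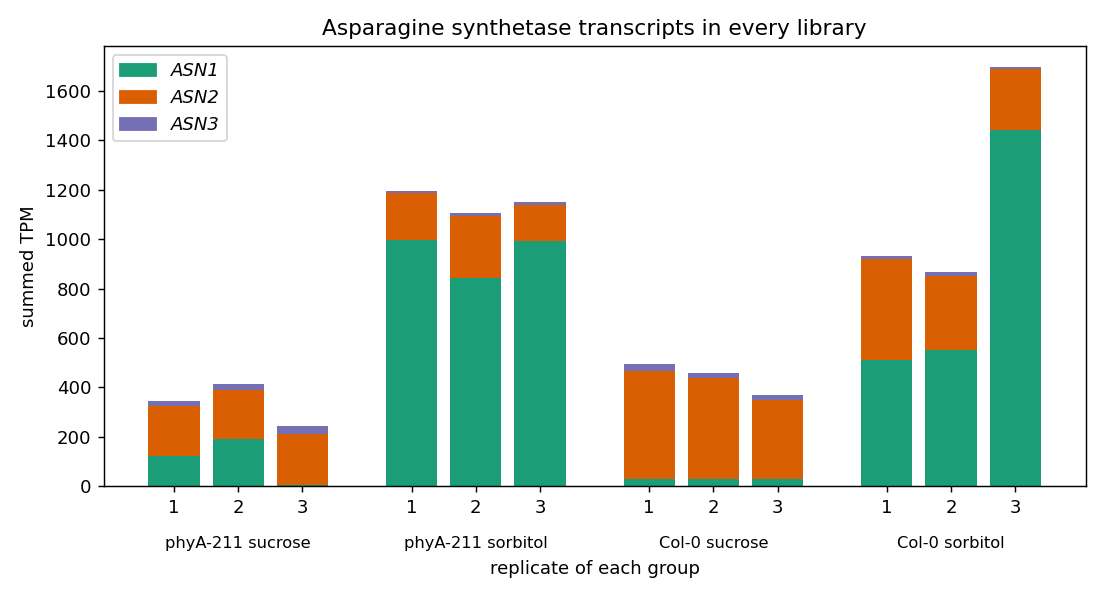
Summed TPM of the asparagine synthetases in each of the 12 libraries, stacked by gene (ASN1, ASN2, ASN3), in groups of 3 replicates. The bars of both sorbitol groups are the taller ones and consist mostly of ASN1, while in those of both sucrose groups ASN2 is the largest part, closely followed by ASN1 in replicate 2 of phyA-211.

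GDH1, a subunit gene of the mitochondrial glutamate dehydrogenase, had 95.4, 112 and 43.3 TPM in phyA-211 with sucrose, against 305, 255 and 295 TPM in phyA-211 with sorbitol. In Col-0 it had 40.8, 38.9 and 47.2 TPM with sucrose, against 123, 162 and 248 TPM with sorbitol. The sugar groups did not overlap in either genotype. GDH1 fell by 1.86 on the log2 scale in phyA-211 (SE 0.316, adjusted p = 0.0035) and fell by 1.99 in Col-0 (SE 0.316, adjusted p = 0.0022).

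GDH2, which encodes the other main subunit of that enzyme, had 396, 419 and 188 TPM in phyA-211 with sucrose, against 965, 1014 and 1024 TPM in phyA-211 with sorbitol. In Col-0 the levels were 223, 199 and 214 TPM with sucrose, against 650.5, 799 and 957 TPM with sorbitol. The sorbitol libraries of a genotype all lay above its sucrose libraries. GDH2 fell by 1.66 on the log2 scale in phyA-211 (SE 0.256, adjusted p = 0.00272) and fell by 1.90 in Col-0 (SE 0.256, adjusted p = 0.00119). The glutamate dehydrogenase sum was 418 ± 163 TPM in phyA-211 with sucrose and 1286 ± 28.7 TPM in phyA-211 with sorbitol, and 254 ± 14.3 TPM in Col-0 with sucrose and 980 ± 217 TPM in Col-0 with sorbitol. GDH2 was between 77.8% and 83.3% of that sum in the 4 group means, so its share moved little while the share of ASN1 among the synthetases moved widely.

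GAT1_2.1, a glutamine amidotransferase, had 6.5, 10.01 and 0.95 TPM in phyA-211 with sucrose, against 96.0, 123 and 136 TPM in phyA-211 with sorbitol. Col-0 had 5.37, 3.95 and 7.19 TPM with sucrose, against 62.6, 88.1 and 137 TPM with sorbitol. The lowest sorbitol library stood well above the highest sucrose library in both genotypes. GAT1_2.1 fell by 4.44 on the log2 scale in phyA-211 (SE 0.511, adjusted p = 0.00121) and fell by 3.85 in Col-0 (SE 0.511, adjusted p = 0.00115). It ranked 1 from the most lowered of all genes in phyA-211 and 6 in Col-0. Without replicate 3 of phyA-211 with sucrose the change in phyA-211 was -3.70 (adjusted p = 0.000422).

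ERD5, the proline dehydrogenase that starts proline oxidation in mitochondria, had 105, 117 and 46.05 TPM in phyA-211 with sucrose, against 265, 243 and 272 TPM in phyA-211 with sorbitol. In Col-0 it had 76.8, 72.0 and 66.5 TPM with sucrose, against 262, 288 and 397 TPM with sorbitol. No sucrose library reached the level of a sorbitol library of its genotype. ERD5 fell by 1.64 on the log2 scale in phyA-211 (SE 0.282, adjusted p = 0.00372) and fell by 2.1004 in Col-0 (SE 0.282, adjusted p = 0.00119).

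THA1, the aldolase that splits threonine into glycine and acetaldehyde, had 63.7, 77.0 and 2.6 TPM in phyA-211 with sucrose, against 415, 253 and 386 TPM in phyA-211 with sorbitol. The Col-0 libraries had 19.1, 21.2 and 33.2 TPM with sucrose, against 234, 242 and 778 TPM with sorbitol. The groups did not overlap, but replicate 3 of phyA-211 with sucrose and replicate 3 of Col-0 with sorbitol widened both contrasts. THA1 fell by 3.71 on the log2 scale in phyA-211 (SE 0.927, adjusted p = 0.0144) and fell by 3.84 in Col-0 (SE 0.927, adjusted p = 0.0131). In Col-0 the call was lost without replicate 3 of sorbitol (-3.27, SE 1.02, adjusted p = 0.0624). All groups share the estimate of spread, so libraries of phyA-211 also enter this p-value. Without replicate 3 of phyA-211 with sucrose as well, a setting chosen after seeing the data, the Col-0 change was called (-3.27, SE 0.251, adjusted p = 5.39e-05). Without only that phyA-211 library it was -3.84 (adjusted p = 0.000107). In phyA-211 the call was lost without replicate 3 of sorbitol (-3.63, adjusted p = 0.053) and in a fit to the phyA-211 libraries alone (adjusted p = 0.0624). Without replicate 3 of phyA-211 with sucrose the change in phyA-211 was -2.28 (adjusted p = 0.00937), and without replicate 2 of that group it was -4.50.

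**Figure D3:**
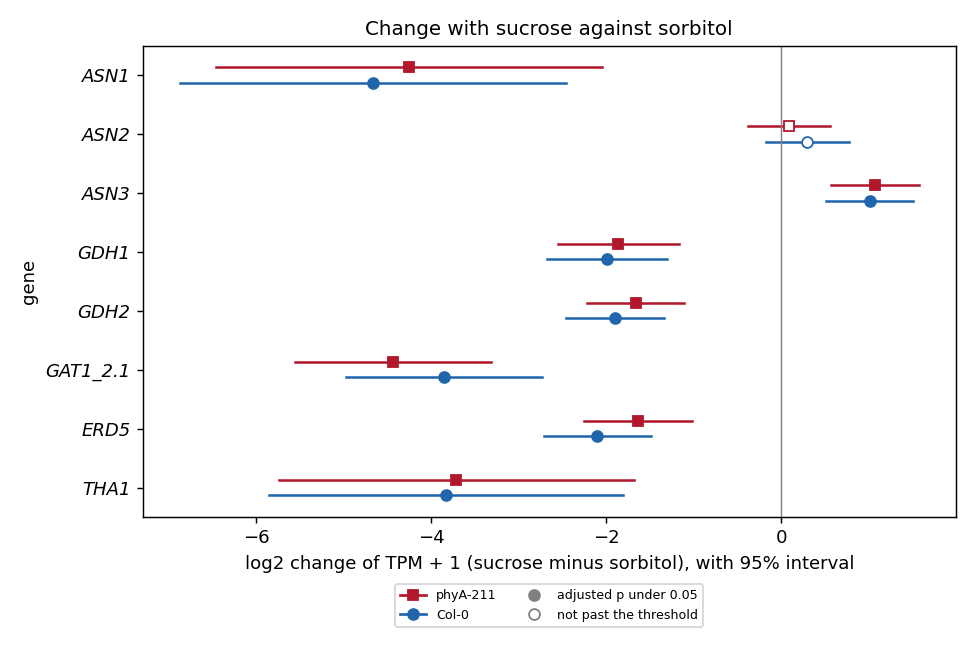
Log2 change of TPM + 1 (sucrose minus sorbitol) of the 8 tested genes in phyA-211 and Col-0, with 95% intervals from limma and filled points where the adjusted p is under 0.05. ASN1, GDH1, GDH2, GAT1_2.1, ERD5 and THA1 lie left of 0 and ASN3 right of 0 in both genotypes, and the intervals of the genotypes overlap for each gene.

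Groups did not overlap for all 7 called genes in each genotype. Over all genes tested, the sucrose libraries lay wholly below the sorbitol libraries for 15.6% in phyA-211 and 17.6% in Col-0, and wholly above for 25.9% in phyA-211 and 25% in Col-0. The order of the genes by mean TPM also differed between the sugars. With sucrose the first was GDH2 in phyA-211 and ASN2 in Col-0, and with sorbitol it was GDH2 in phyA-211 and ASN1 in Col-0. In Col-0 with sorbitol the means of ASN1 (835 ± 526 TPM) and GDH2 (802 ± 153 TPM) differed by less than their spread, as did those of ERD5 (316 ± 71.4 TPM) and ASN2 (319 ± 82.8 TPM). In phyA-211 with sorbitol GDH2 (1001 ± 31.6 TPM) and ASN1 (944 ± 88.3 TPM) also differed by less than the spread of ASN1. GAT1_2.1 and GDH3 were the least abundant of the 9 genes with sucrose, and ASN3 and GDH3 with sorbitol.

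The sucrose changes in phyA-211 and Col-0 were compared by the genotype by sugar interaction, which subtracts the Col-0 change from the phyA-211 change. None of the 8 genes was called by limma, where 0.0101% of all genes were, and none had an unadjusted p under 0.05. The adjusted p was 0.999 for each. The interaction was 0.41 for ASN1 (95% interval -2.71 to 3.53), 0.13 for GDH1 (-0.85 to 1.10), 0.23 for GDH2 (-0.56 to 1.03), 0.46 for ERD5 (-0.41 to 1.33), 0.12 for THA1 (-2.74 to 2.99) and -0.59 for GAT1_2.1 (-2.17 to 0.99). These intervals include 0 and also sizeable differences in both directions, so they do not show that the genotypes responded alike. Without replicate 3 of phyA-211 with sucrose the interaction of ASN1 was 2.05 (95% interval 0.98 to 3.12, adjusted p = 0.283), that of ERD5 0.88 (0.41 to 1.35, adjusted p = 0.2996), that of GDH2 0.60 (0.17 to 1.03, adjusted p = 0.501) and that of THA1 1.56 (0.21 to 2.91, adjusted p = 0.625). These 4 then had an unadjusted p under 0.05 by limma, and none was called. With libraries weighted by their spread the interaction of ERD5 was 0.71 (adjusted p = 0.0468).

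With sorbitol, no gene of the 8 passed the test between phyA-211 and Col-0, where limma called 2.15% of all genes, 0.775% higher and 1.38% lower. An unadjusted p under 0.05 was found for GDH1 and ASN2. GDH1 had 285 ± 26.2 TPM in phyA-211 and 178 ± 63.9 TPM in Col-0 (log2 change 0.73, SE 0.316, adjusted p = 0.318). ASN2 had 195 ± 53.0 TPM in phyA-211 and 319 ± 82.8 TPM in Col-0 (-0.71, SE 0.216, adjusted p = 0.1445). The phyA-211 libraries lay wholly above the Col-0 libraries for GDH1 and GDH2, as for 13.4% of all genes tested, and wholly below them for none, against 6.63% of all genes, with overlap for the other 6. GDH2 had a log2 change of 0.34 (95% interval -0.22 to 0.90, adjusted p = 0.629). The intervals of ASN1 (-1.86 to 2.55) and THA1 (-2.07 to 1.99) were wide. Without replicate 3 of both phyA-211 with sucrose and Col-0 with sorbitol, a setting chosen after seeing the data, ASN1 (0.82, adjusted p = 0.0213), GDH1 (1.00, adjusted p = 0.00609) and GDH2 (0.47, adjusted p = 0.0398) were called higher in phyA-211, and 1 of the 4 mesophyll markers was called lower, a part in the result that was not tested. Over all 19862 genes, that setting called 418 higher and 572 lower, against 154 and 274 with all 12 libraries.

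With sucrose, ASN2 was the only one of the 8 genes called between phyA-211 and Col-0, where limma called 7.4% of all genes, 4.15% higher and 3.25% lower (824 and 645 genes, against 581 and 927 after median ratio rescaling). ASN2 had 203 ± 3.11 TPM in phyA-211 and 388 ± 62.9 TPM in Col-0 (log2 change -0.92, SE 0.216, adjusted p = 0.0259). Each phyA-211 library lay under each Col-0 library, as for 8.41% of all genes tested. The call was lost without replicate 1 of Col-0 (-0.83, adjusted p = 0.0713), replicate 2 of Col-0 (-0.88, adjusted p = 0.109), replicate 1 of phyA-211 (-0.92, adjusted p = 0.059) or replicate 2 of phyA-211 (-0.91, adjusted p = 0.0829). This comparison shares its sucrose libraries with the sugar comparisons above.

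Values of the other genes with sucrose rested on replicate 3 of phyA-211. With all 12 libraries the log2 changes were 0.75 for ASN1 (adjusted p = 0.684), 0.86 for GDH1 (adjusted p = 0.1215), 0.57 for GDH2 (adjusted p = 0.201), 0.20 for ERD5 (adjusted p = 0.696) and 0.08 for THA1 (adjusted p = 0.969). None of the 8 genes lay wholly above Col-0 in all phyA-211 libraries, as 19.2% of all genes did. Without that replicate 5 of the 8 genes were called instead of 1. Over all 19862 genes, 936 were then called higher and 675 lower, against 824 and 645 with all 12 libraries. ASN1 was then higher in phyA-211 by 2.39 on the log2 scale (SE 0.363, adjusted p = 0.00281), GDH1 by 1.27 (adjusted p = 0.00738), GDH2 by 0.94 (adjusted p = 0.00312) and ERD5 by 0.62 (adjusted p = 0.0376), and ASN2 was lower (-0.93, adjusted p = 0.0417). THA1 (1.52, adjusted p = 0.0696) and GAT1_2.1 (0.51, adjusted p = 0.366) did not pass the test without it. Without replicate 3 of Col-0 with sorbitol as well, a setting chosen after seeing the data, THA1 was called higher (1.52, adjusted p = 0.00535). GAT1_2.1 was not called there (0.51, adjusted p = 0.250). In replicates 1 and 2 ASN1 stood at 123 and 189 TPM in phyA-211, above the 27.4 to 29.4 TPM of Col-0 with sucrose, and in replicate 3 it stood at 4.07 TPM, below them. The mesophyll marker sum of that replicate was the lowest of the 12 libraries, and the part of this in the result was not tested.

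**Figure D4:**
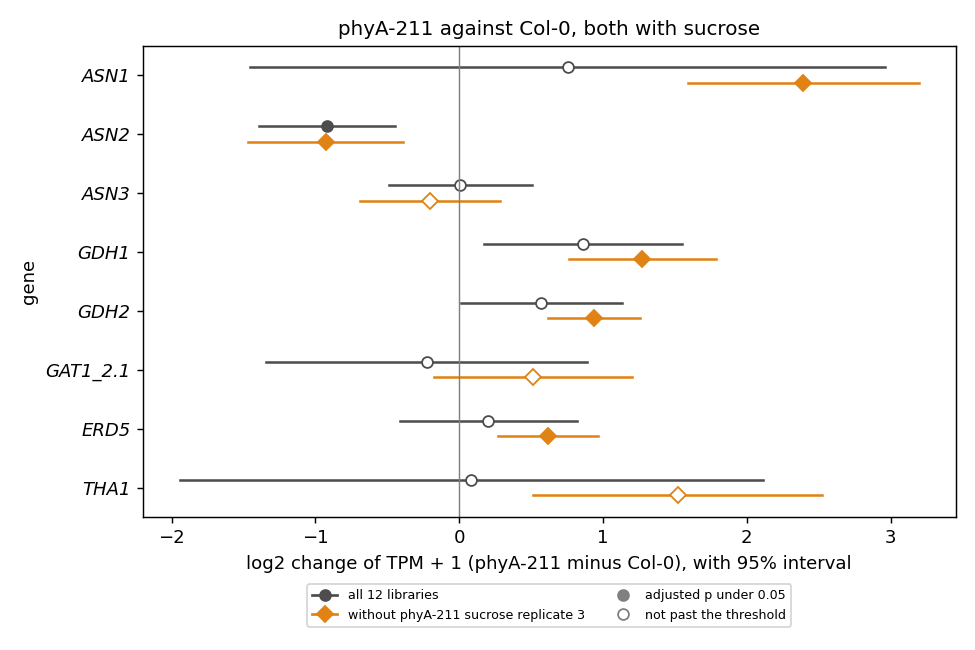
Log2 change of TPM + 1 (phyA-211 minus Col-0, both with sucrose) of the 8 tested genes, with 95% intervals, from all 12 libraries and from the 11 that remain without replicate 3 of phyA-211 with sucrose. ASN1, GDH1, GDH2 and ERD5 are called higher (filled points) only without that library, and ASN2 is called lower in both fits.

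The 6 genes that were lower with sucrose, a set taken from these same data, had similar patterns across the 12 libraries. A high r over the 12 libraries follows in part from that choice. On the log2 scale, Pearson's r between pairs of them was 0.91 to 0.99, and for the deviations from the group means it was 0.92 to 0.98, again over 12 libraries. Between ASN3 and ASN1 r was -0.93, and between ASN2 and ASN1 it was -0.32. All these points share libraries, and the libraries that stood apart enter every pair. The genes with the most similar pattern over the 12 libraries, 3 for each tested gene, numbered 24, of which 8 have no symbol and are not named. Nearest to ASN1 were MCCA (r = 0.996), PDS1 (0.993) and DIN4 (0.993). Nearest to GDH1 were ECH2 (0.996), HSPRO2 (0.991) and MCCB (0.991), and to GDH2 BCE2 (0.996), AAE5 (0.996) and ALP (0.996). The named neighbours were LON1 (0.994) and PWP2 (0.994) for ASN3, ARASP (0.985) for ASN2, PP2-A13 (0.991) for GAT1_2.1, BOA (0.989) for ERD5, and MYBL2 (0.989) and OXS3 (0.988) for THA1.

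Other genes of the same pathways were followed through 5 lists of 42 genes, of which 39 were tested. With sucrose, 8 of these rose and 6 fell in phyA-211, and 7 rose and 7 fell in Col-0, with a median log2 change of 0.11 in phyA-211 and 0.15 in Col-0. These counts are to be read against the shares of all genes called in each direction given above. Up to 4 called genes of each list are named, those with the smallest adjusted p. MTO2, P5CDH, AT5G38710 and bZIP53 fall outside this rule and were chosen after their values were seen. For calls that were lost without 1 library, that library is named. For MTO2, MGL, bZIP25 and bZIP63 only the highest adjusted p is given.

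Of 7 genes that break down asparagine or interconvert aspartate, 2 rose and 2 fell in phyA-211, and 3 fell in Col-0. ASPGB1, an asparaginase, had 3.87, 4.95 and 6.28 TPM in phyA-211 with sucrose, against 17.8, 17.3 and 25.7 TPM with sorbitol, and 2.09, 2.72 and 3.47 TPM in Col-0 with sucrose, against 8.04, 13.6 and 17.5 TPM with sorbitol. ASPGB1 thus lay lower with sucrose in every library of either genotype (log2 change -1.82, adjusted p = 0.00251, in phyA-211 and -1.86, adjusted p = 0.00141, in Col-0). ASP3, an aspartate aminotransferase, averaged 100.2 ± 17.3 TPM with sucrose and 167 ± 14.4 TPM with sorbitol in phyA-211 (-0.74, adjusted p = 0.00586), and 74.1 ± 9.82 TPM with sucrose and 119 ± 8.39 TPM with sorbitol in Col-0 (-0.69, adjusted p = 0.00727). Its relatives ASP1 (0.61, adjusted p = 0.0179) and ASP5 (0.46, adjusted p = 0.016) rose in phyA-211, and both calls were lost without replicate 1 or replicate 3 of phyA-211 with sorbitol, with adjusted p up to 0.0627 and 0.0654. The asparaginase ASPGA1 fell in Col-0 (-0.33, adjusted p = 0.0346), and that call was lost without any of 5 single libraries of the comparison, replicate 3 of Col-0 with sucrose being the exception, with adjusted p up to 0.135.

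Of 8 tested genes of glutamate and GABA metabolism, 1 rose and 1 fell in phyA-211, and 2 rose and 1 fell in Col-0. POP2, the transaminase that breaks down GABA, had 184, 204 and 102 TPM in phyA-211 with sucrose, against 346, 387 and 349 TPM with sorbitol, and 118, 105 and 96.4 TPM in Col-0 with sucrose, against 227, 247 and 325 TPM with sorbitol. POP2 fell by 1.20 on the log2 scale in phyA-211 (adjusted p = 0.00502) and fell by 1.30 in Col-0 (adjusted p = 0.00304). GAD4, a glutamate decarboxylase that makes GABA, averaged 12.1 ± 4.73 TPM with sucrose and 2.12 ± 0.617 TPM with sorbitol in phyA-211 (2.03, adjusted p = 0.00256). In Col-0 it averaged 8.51 ± 2.94 TPM with sucrose and 3.28 ± 1.02 TPM with sorbitol (1.14, adjusted p = 0.0187), a call lost without replicate 3 of Col-0 with sorbitol or replicate 1 of Col-0 with sucrose (adjusted p up to 0.0838). GLT1, the NADH-dependent glutamate synthase, rose in Col-0 to 250.2 ± 43.9 TPM with sucrose, against 129.9 ± 29.5 TPM with sorbitol (0.95, adjusted p = 0.0134), a call lost without replicate 3 of Col-0 with sorbitol, or replicate 1 or 2 of Col-0 with sucrose (adjusted p up to 0.0621). Of 5 tested glutamine synthetases none was called in phyA-211 and 1 rose in Col-0. This was the cytosolic GLN1;2, with 302 ± 36.6 TPM with sucrose and 181 ± 38.3 TPM with sorbitol (0.75, adjusted p = 0.0194), a call lost without replicate 3 of Col-0 with sorbitol or replicate 1 of Col-0 with sucrose (adjusted p up to 0.0853).

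Of 11 genes of proline and arginine metabolism, 1 rose and 2 fell in phyA-211, and 2 fell in Col-0. P5CS2, which makes a proline precursor from glutamate, averaged 52.3 ± 8.44 TPM with sucrose and 90.8 ± 15.1 TPM with sorbitol in phyA-211 (-0.79, adjusted p = 0.00491). In Col-0 it averaged 64.4 ± 7.71 TPM with sucrose and 114 ± 1.10 TPM with sorbitol (-0.82, adjusted p = 0.00358). The ornithine aminotransferase delta-OAT fell too (-0.65, adjusted p = 0.00567, in phyA-211 and -0.86, adjusted p = 0.0016, in Col-0). P5CR, the last enzyme of proline synthesis, rose in phyA-211 (0.31, adjusted p = 0.0481), a call lost without any single sorbitol or sucrose library of phyA-211 and under both other scalings, with adjusted p up to 0.385. P5CDH, which follows proline dehydrogenase in the breakdown of proline, was not called (0.07, adjusted p = 0.724, in phyA-211 and 0.01, adjusted p = 0.973, in Col-0). AT5G38710, also in the list, was at 0.27 to 2.34 TPM in all libraries and was not called.

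Of 8 genes around threonine, 4 rose and 1 fell in each genotype. OMR1, the threonine deaminase that opens isoleucine synthesis, averaged 57.0 ± 10.8 TPM with sucrose and 30.3 ± 4.46 TPM with sorbitol in phyA-211 (0.88, adjusted p = 0.00645), and 58.1 ± 5.92 TPM with sucrose and 32.6 ± 6.72 TPM with sorbitol in Col-0 (0.83, adjusted p = 0.00771). AK-HSDH1 and AK-HSDH2, which join aspartate kinase and homoserine dehydrogenase in the path to threonine, rose in phyA-211 by 1.06 (adjusted p = 0.00821) and 0.87 (adjusted p = 0.00913). In Col-0 they rose by 0.98 (adjusted p = 0.0114) and 0.77 (adjusted p = 0.016), and both calls were lost without replicate 3 of Col-0 with sorbitol, the call of AK-HSDH2 also without replicate 1 or 2 of Col-0 with sucrose (adjusted p up to 0.0542 and 0.0682). The threonine synthase MTO2 rose in phyA-211 (0.38, adjusted p = 0.047) and Col-0 (0.46, adjusted p = 0.0232), and these calls were lost without several single libraries (adjusted p up to 0.162 in phyA-211 and 0.0802 in Col-0). Without replicate 3 of Col-0 with sorbitol the count of raised threonine genes in Col-0 was 1 instead of 4. The count of raised genes among all 19862 also dropped there, to 1142 from 2412.

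MGL, which breaks down methionine, had 88.5, 118 and 96.3 TPM in phyA-211 with sucrose, against 124, 184 and 169 TPM with sorbitol. In Col-0 it had 39.5, 32.7 and 41.6 TPM with sucrose, against 90.55, 111 and 159 TPM with sorbitol. MGL fell by 0.64 on the log2 scale in phyA-211 (adjusted p = 0.0421) and fell by 1.60 in Col-0 (adjusted p = 0.00111), the phyA-211 call being lost without several single libraries (adjusted p up to 0.131). Between the genotypes with sucrose, 2 of the 39 list genes were higher in phyA-211 and 1 was lower, to be read against the 4.15% higher and 3.25% lower of all genes. MGL was higher by 1.38 (adjusted p = 0.00237) and delta-OAT by 0.64 (adjusted p = 0.0112). The arginase ARGAH2 averaged 39.9 ± 10.6 TPM in phyA-211 and 68.8 ± 5.42 TPM in Col-0 (-0.80, adjusted p = 0.0239). The call of delta-OAT was lost without replicate 2 of phyA-211 or of Col-0 with sucrose and under median ratio rescaling (adjusted p up to 0.0571), and that of ARGAH2 without any Col-0 replicate with sucrose or replicate 2 of phyA-211 (adjusted p up to 0.111). Without replicate 3 of phyA-211 with sucrose, the asparagine, glutamate, proline and threonine lists each had 1 gene called higher in phyA-211. In that setting 2 genes of the proline list and 1 of the threonine list were called lower. Of all genes, 936 were then called higher and 675 lower, against 824 and 645 with all 12 libraries. With all 12 libraries none of the 39 was called between the genotypes with sorbitol or in the interaction. Without replicate 3 of phyA-211 with sucrose, the sorbitol comparison called 1 gene of the asparagine list higher, and of the proline list 1 higher and 1 lower. Without replicate 3 of Col-0 with sorbitol as well, it called 1 gene of the glutamate list higher, and of the proline list 1 higher and 1 lower. Median ratio rescaling called 1 of the proline list lower. Of all genes, 322 were higher and 464 lower in the first setting, and 418 and 572 in the second.

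The group C and S1 bZIP transcription factors, some of which are known to bind promoters of ASN1 and ERD5 in starved cells, numbered 9, and in each genotype 1 rose and 4 fell with sucrose. Of all genes, 16.9% rose and 10.5% fell in phyA-211, and 12.1% rose and 9.95% fell in Col-0. bZIP1 had 74.3, 61.8 and 16.9 TPM in phyA-211 with sucrose, against 164, 118.5 and 153 TPM with sorbitol, and 17.0, 17.6 and 22.4 TPM in Col-0 with sucrose, against 69.9, 91.2 and 116 TPM with sorbitol. Its replicate 3 of phyA-211 with sucrose was again the lowest of that group and its replicate 3 of Col-0 with sorbitol the highest. bZIP1 fell by 1.72 on the log2 scale in phyA-211 (adjusted p = 0.0134, and 0.0512 without replicate 3 of phyA-211 with sorbitol) and fell by 2.21 in Col-0 (adjusted p = 0.00442). bZIP9 averaged 23.2 ± 6.88 TPM with sucrose and 49.2 ± 3.59 TPM with sorbitol in phyA-211 (-1.09, adjusted p = 0.00307), and 20.1 ± 1.41 TPM with sucrose and 46.2 ± 1.79 TPM with sorbitol in Col-0 (-1.16, adjusted p = 0.00176). bZIP11, whose translation is known to be repressed by sucrose, rose in transcript by 1.01 in phyA-211 (adjusted p = 0.0154) and by 1.08 in Col-0 (adjusted p = 0.0124). The phyA-211 call was lost without replicate 1 or 3 of phyA-211 with sorbitol or replicate 3 of phyA-211 with sucrose (adjusted p up to 0.0587), and the Col-0 call without replicate 3 of Col-0 with sorbitol (adjusted p = 0.0567). The remaining calls were falls of bZIP25 (-0.45, adjusted p = 0.0208, in phyA-211 and -0.52, adjusted p = 0.0127, in Col-0) and bZIP63 (-0.98, adjusted p = 0.0192, in phyA-211 and -0.83, adjusted p = 0.0429, in Col-0), each lost without at least 1 single library, with adjusted p up to 0.0926 for bZIP25 and 0.1155 for bZIP63. bZIP53 was not called (-0.02, adjusted p = 0.9325, in phyA-211 and -0.08, adjusted p = 0.650, in Col-0).

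**Figure D5:**
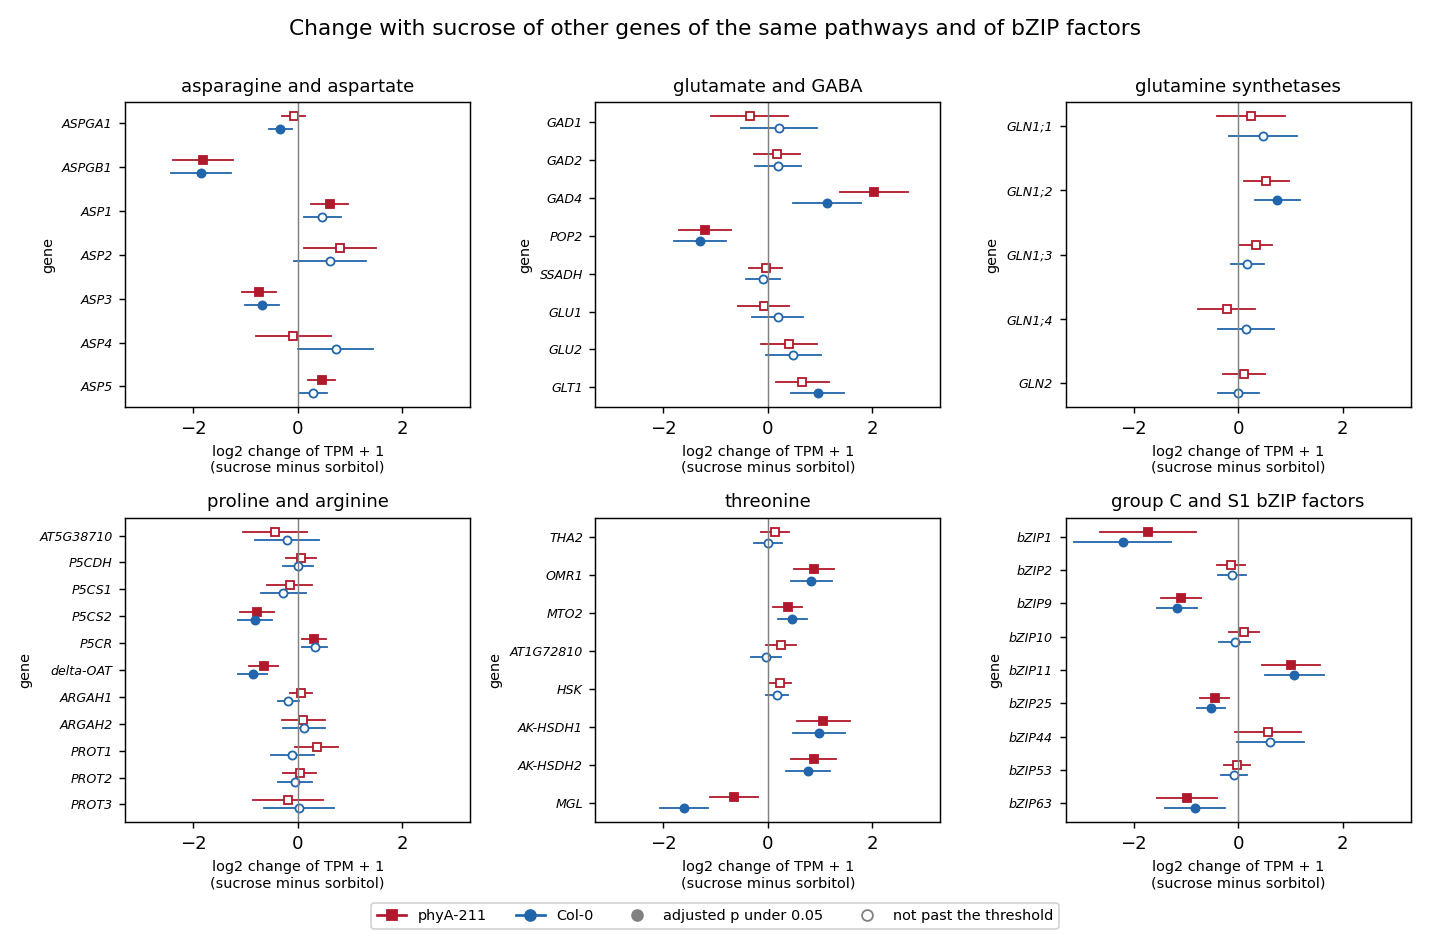
Log2 change of TPM + 1 (sucrose minus sorbitol) with 95% intervals for the tested genes of the 5 pathway lists and the bZIP list, in phyA-211 and Col-0, with filled points where the adjusted p is under 0.05. Genes on both sides of 0 stand in most panels, with ASPGB1, POP2, P5CS2, bZIP1 and bZIP9 to the left and GAD4, OMR1 and AK-HSDH1 to the right in both genotypes.

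Of the 9 genes, 5 overlap another annotated gene in the RefSeq annotation, and whether reads were counted by strand is not given in the sources used here, so reads of overlapping genes may not be told apart. The partners of ASN1 (AT3G47341, at 0 TPM in all libraries) and GDH1 (AT5G18180, at most 0.55 TPM) were low. The main partner of GAT1_2.1, AT1G15030, stood at 30.0 to 41.55 TPM in every group, and the partner of THA1, the histone demethylase PKDM7D, at 7.89 to 16.0 TPM (log2 change with sucrose in Col-0 0.04, adjusted p = 0.904). GDH3 overlaps AT3G03920, whose level in the 12 libraries was 70.8 to 178 TPM.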

How the data were processed

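The authors deposited 1 table of TPM for 32833 genes in 12 libraries, per the file headers. Per the submitters' processing notes the build was TAIR10, and HISAT2, fastp, DESeq2 and cutadapt are named with no version or role. What annotation and program made the TPM is not given in the sources used here. TPM keeps no counts, so depth is unknown. Symbols are those of the table or of a RefSeq table of another assembly, which matched 32548 identifiers. The RefSeq coordinates were used only to find overlapping genes.

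Genes with at least 1 TPM in at least 3 libraries (19862) were fitted as log2(TPM + 1) with limma 3.58.1 in R 4.3.3, as 4 group means with a mean-variance trend and no replicate block (8 residual and 3.68 prior degrees of freedom), a scale that understates changes of low genes. Comparisons were sucrose against sorbitol in each genotype, phyA-211 against Col-0 with each sugar, and their interaction. Adjusted p-values are 2-sided, Benjamini-Hochberg over all genes tested, from limma, and "rose" and "fell" mean under 0.05. The fit was tested on simulated data. The members and lists were chosen with earlier results of these data known. Named were all 9 members, up to 4 called genes of each list per comparison by smallest adjusted p, and the 3 genes nearest each tested member by Pearson's r. Alternatives were a pseudocount of 0.1, no filter, median ratio rescaling, quantile normalization, library weights, a fit to the compared groups alone, a replicate block and leaving out each library. Leaving out replicate 3 of both Col-0 with sorbitol and phyA-211 with sucrose was added after seeing the data. Library weights were estimated gene by gene because the default estimate did not converge. Libraries of a group had the same value for at most 0.896% of genes.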

Additional observations from a re-analysis of the deposited data

How the results depend on the processing

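TPM without counts, 3 libraries a group and the libraries that stood apart limit these results. Of the 8 tested genes 7 were called for sucrose in each genotype, with 6 to 7 called when single libraries were left out, and 5 in phyA-211 in a fit to its groups alone. The sorbitol comparison of the genotypes had 0 called, 3 with library weights and 3 without both libraries that stood apart. The sucrose comparison had 1 called, 0 to 5 when single libraries were left out, 7 with library weights and 6 without both libraries, and the interaction had 0, against 1 with library weights. Over all genes, library weights called 2729 higher and 2294 lower with sorbitol, and 6158 higher and 2470 lower with sucrose. Without both libraries, 418 were higher and 572 lower with sorbitol, and 1070 higher and 773 lower with sucrose. With library weights GAT1_2.1 was called higher in phyA-211 with sucrose (log2 change 0.86, adjusted p = 0.019), against -0.23 (adjusted p = 0.823), and the cause was not tested (adjusted p 0.019 to 0.9815 over the alternatives).

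A pseudocount of 0.1, no filter, median ratio rescaling, quantile normalization and the replicate block changed no call of these genes, and under the replicate block 7 were called in phyA-211, 7 in Col-0, 0 with sorbitol, 1 with sucrose and 0 in the interaction. Deviations from the group means of same-numbered libraries correlated at -0.27 to 0.31 (6 of 18 pairs over 0.1). For different numbers r was -0.29 to 0.37 (12 of 36 pairs over 0.1). Such counts cannot show whether libraries of the same number were grown together, which the labels do not say. Median ratio rescaling moved the median log2 change of all genes with sucrose in phyA-211 to -0.02, against 0.11, and between the genotypes with sucrose to 0.01, against 0.12. The number of all genes called for sucrose ran from 2316 to 11402 over the alternatives in phyA-211 (5454 as reported) and from 2363 to 8929 in Col-0 (4388). Between the genotypes it ran from 157 to 5023 with sorbitol (428) and from 570 to 8628 with sucrose (1469), and for the interaction from 1 to 1376 (2), the highest being with library weights in each.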
